A study of Mus musculus with 18 samples.

Results

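Interferon-stimulated genes are the genes that cells switch on when interferon binds its receptors. Here 40 of them were listed around Ifi27l2a, which encodes a small hydrophobic protein of the ISG12 family. The members were selected on the fall of Ifi27l2a in white fat of the transgenic mice measured on these arrays, and the list serves to ask whether that fall was shared. Of the 40 listed genes, 35 were measured, among 19937 genes in all. Ifi44 had no listed probe set, and Ifi47, Isg15, Gbp2 and Igtp were on the arrays only as probe sets annotated with several genes, which are not named here. Where a gene had several probe sets of its own, the brightest was used.

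The study measured gene expression on Affymetrix whole-transcript arrays in adipose tissue of male C57BL/6J mice aged 10 weeks and kept on chow. FXR mice overexpressed human FXR, the farnesoid X receptor, a nuclear receptor for bile acids, specifically in adipose tissue, and control mice were wild type. There were 4 FXR and 4 control arrays of white adipose tissue (WAT) and 5 FXR and 5 control arrays of brown adipose tissue (BAT), described as biological replicates. The white depot, the promoter of the transgene and whether both fats came from the same mice are not given in the sources used here. For control BAT 2 and 4 the labels also mention 6 weeks of feeding. Values are log2(intensity + 1), changes are FXR minus control with the standard error (SE) of limma, and a gene was called where its p-value, adjusted after Benjamini-Hochberg over all 19937 genes, was below 0.05.

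Interferons of type I and type III act through receptors coupled to JAK kinases. The signal reaches the nucleus in a complex that holds STAT2 and IRF9 and binds the interferon-stimulated response element, a pair of GAAA cores, in the promoters of target genes. IRF1, itself an induced gene, binds the same kind of element. In adipose tissue both adipocytes and resident immune cells carry the receptors of type I interferons.

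The response element is shown here as a feature of sequence that was not read from these arrays. The genes were listed as interferon-induced, so the share of matches describes the list and is no result of these data. In RefSeq promoters of GRCm38.p6, running from 250 bases before to 50 bases after the gene start, the motif searched was GAAA, any 2 bases and GAAA again, on both strands, which reads TTTC, any 2 bases and TTTC on the other. Of the 40 listed genes 28 had a promoter in the table, and 14 of these (50%) held at least 1 match, against 1079 of 27025 genes (3.99%) in the whole table. Among the measured genes it was 11 of 23 (47.8%). Windows around the first match follow for all 11, 5′ to 3′ on the strand of the gene, with the bases of matches in capitals.

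Ifit1, chr19:34640775-34640804, plus strand: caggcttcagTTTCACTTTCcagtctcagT
Ifit3, chr19:34583363-34583392, plus strand: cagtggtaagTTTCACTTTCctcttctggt
Rsad2, chr12:26456553-26456582, minus strand: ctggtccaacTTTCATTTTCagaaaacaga
Oas1a, chr5:120907526-120907555, minus strand: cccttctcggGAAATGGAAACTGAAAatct
Oas3, chr5:120777715-120777744, minus strand: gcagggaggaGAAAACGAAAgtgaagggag
Ifih1, chr2:62646206-62646233, minus strand: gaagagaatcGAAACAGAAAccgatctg
Eif2ak2, chr17:78882535-78882564, minus strand: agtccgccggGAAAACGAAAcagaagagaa
Stat2, chr10:128270266-128270295, plus strand: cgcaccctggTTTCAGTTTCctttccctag
Gbp3, chr3:142559989-142560018, plus strand: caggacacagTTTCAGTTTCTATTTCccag
Irgm1, chr11:48871431-48871460, minus strand: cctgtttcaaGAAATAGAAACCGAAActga
Bst2, chr8:71537583-71537612, minus strand: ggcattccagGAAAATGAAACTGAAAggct

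Oas1a, Gbp3, Irgm1 and Bst2 held overlapping matches, in which a GAAA core is shared. The Ifit1 window ends in the first base of a second match, seen whole in its promoter at chr19:34640639-34640938 on the plus strand of GRCm38.p6.

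Ifit1 promoter: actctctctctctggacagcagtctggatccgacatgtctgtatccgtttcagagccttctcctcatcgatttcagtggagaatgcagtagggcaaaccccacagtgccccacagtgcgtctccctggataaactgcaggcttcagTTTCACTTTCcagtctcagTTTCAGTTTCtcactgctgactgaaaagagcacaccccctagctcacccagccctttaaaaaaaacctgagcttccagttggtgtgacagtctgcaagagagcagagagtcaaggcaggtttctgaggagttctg

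A match describes these letters only, and the lack of a match does not show that a gene has no response element. The measured genes with a promoter but no match in this window were Ifit2, Ifi35, Irf1, Irf7, Irf9, Oasl1, Oasl2, Xaf1, Trim25, Cmpk2, Dtx3l and Herc6.

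The arrays themselves bear on how these values read. The median intensity of a BAT array was 93.1 to 99.9 and that of a WAT array 60.5 to 61.7, so levels are compared within a tissue only. Taking 1.5 times an array's 1% quantile as the bound of dim signal, 33 of 35 members lay above it on average in BAT, all but Mx1 and Mx2. In WAT 23 of 35 did, and Ifit1, Ifit3, Oas1a, Oas2, Oas3, Mx1, Mx2, Rsad2, Usp18, Rtp4, Cmpk2 and Herc6 did not, so a change of these genes in WAT would be compressed. All 8 brown adipocyte markers lay above the bound in BAT, and 1 of 8 did in WAT. Skeletal muscle markers stood apart on 3 BAT arrays: their mean log2 value was 10.92, 10.35, 7.17, 10.88 and 8.77 on FXR BAT 1 to 5, against 8.16, 7.99, 9.14, 7.24 and 6.98 on control BAT 1 to 5. On WAT arrays it was 6.07 to 6.17 in FXR and 6.06 to 6.10 in control.

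In white fat, Ifi27l2a was the one member that was lower by a wide margin, and the other 34 differed little between genotypes. Ifi27l2a was 7.46, 6.97, 6.94 and 6.60 on the 4 FXR WAT arrays, against 8.75, 8.74, 8.90 and 8.45 on the 4 control WAT arrays. Every FXR array lay below every control array, with 7.46 the highest FXR value and 8.45 the lowest control value. The change was -1.72 ± 0.17 (SE, n = 4 and 4), 3.29-fold lower in FXR WAT, and ranked 1 among the falls of all 19937 genes. This fall is the value that set the list, so it is given as a description without a test.

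The other 34 members ranged in WAT from -0.22 for Trim25 to 0.13 for Ifi27, all within 0.25 log2 units of no change. Leaving out Ifi27l2a, whose fall set the list, limma called 0 of the 34 lower and 0 higher, where 0.456% of all genes were called lower and 0.873% higher (1.33% in either direction). At an unadjusted p below 0.05 there were 3 of the 34 (8.82%), where 12.5% of all genes were. The FXR mean was the lower one for 28 of the 34, against 49.2% of all genes, and the higher one for 6, against 50.8%. The median change was -0.05 over the 34 and 0.00097 over all genes. The mean log2 value over the 34 members other than Ifi27l2a was 6.35 to 6.43 on FXR WAT arrays and 6.39 to 6.52 on control WAT arrays, which overlap.

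Among the 34 other members, Trim25 alone had WAT arrays that did not overlap, so 1 was separated downwards and 0 upwards, where 3.47% and 4.31% of all genes were. That share is near the background of the comparison. Trim25, a ubiquitin ligase that acts with the RNA sensor RIG-I, was 6.38, 6.45, 6.53 and 6.56 on FXR WAT arrays, against 6.67, 6.60, 6.71 and 6.82 on control WAT arrays. The highest FXR array and the lowest control array were 6.56 and 6.60, so the groups nearly touched, and the change was -0.22 ± 0.06 (SE). In BAT the Trim25 change was -0.14 ± 0.07, with overlapping arrays and an adjusted p of 0.243 by limma.

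**Figure D1:**
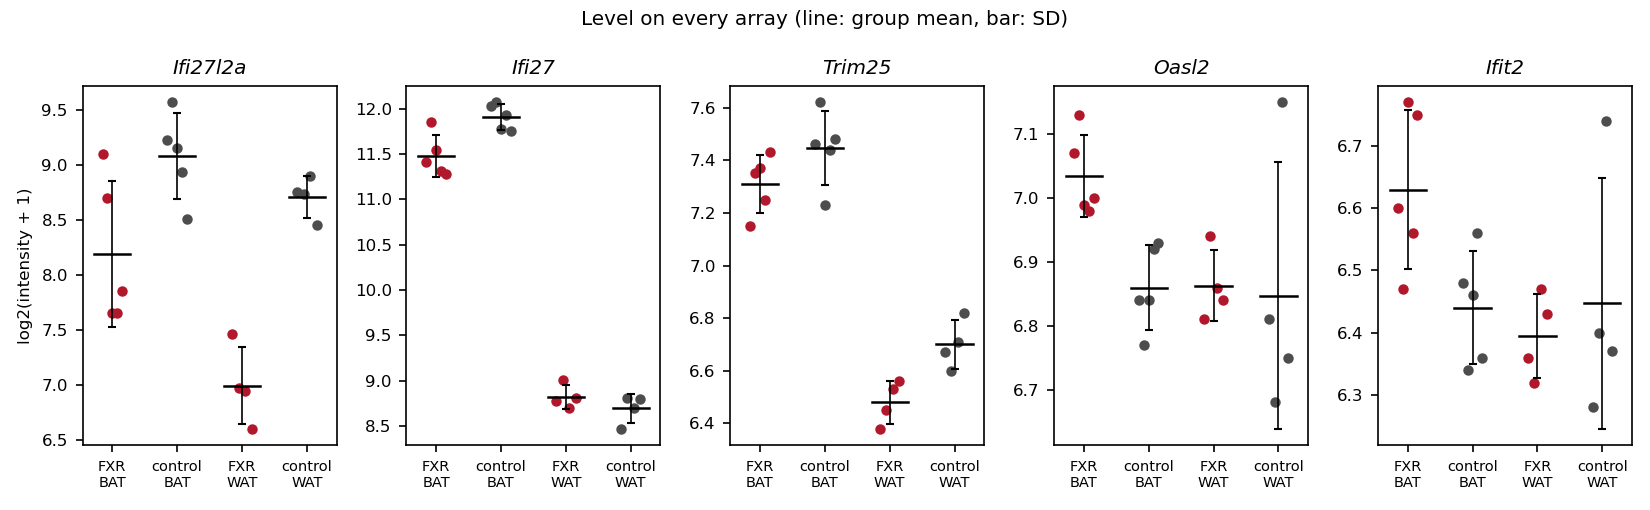
Level of 5 members on every array, as log2(intensity + 1), with 1 panel per gene and its own vertical scale. Points are arrays, lines group means and bars SDs (n = 5 per genotype in BAT, 4 per genotype in WAT). Ifi27l2a on FXR WAT arrays (6.60 to 7.46) lies below all control WAT arrays (8.45 to 8.90), while Ifi27 does not separate the genotypes in WAT.

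Brown fat gives the contrast that the rule did not use. There 1 of 35 members rose (Oasl2) and 1 fell (Ifi27), with 33 not passing the test, while 7.01% of all genes rose and 8.75% fell, 15.8% in all. The share of members called was below that of all genes. At an unadjusted p below 0.05 there were 10 members (28.6%), beside 28.2% of all genes. The FXR mean was higher for 23 members and lower for 12, against 56.3% of all genes higher and 43.7% lower. The median change was 0.05 over the members and 0.01 over all genes. With each array centred on its median, the members' median turned to -0.03 and that of all genes to -0.07. The sign of the members' median thus depended on the scaling, while it lay above that of all genes in both.

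Ifi27l2a was also lower on average in FXR BAT, but the arrays overlapped. Its values were 9.10, 8.70, 7.65, 7.65 and 7.85 on FXR BAT arrays, against 9.23, 9.57, 9.15, 8.94 and 8.51 on control BAT arrays. FXR BAT 3, 4 and 5 lay below all controls, and FXR BAT 1 and 2 lay within their range. The change of -0.89 ± 0.30 (SE, n = 5 and 5) did not pass the threshold (adjusted p = 0.0657, limma), and ranked 19 among the falls of all genes. Without FXR BAT 1 it was -1.12 ± 0.25 (adjusted p = 0.0158, limma), without control BAT 5 it was -1.03 ± 0.30 (adjusted p = 0.0442, limma), and without the muscle-high FXR BAT 1, 2 and 4 it was -1.33 ± 0.23 (adjusted p = 0.00779, limma). It was -0.77 ± 0.36 without control BAT 2 and 4 (adjusted p = 0.274, limma) and -0.75 ± 0.30 without FXR BAT 3 or FXR BAT 4 (adjusted p = 0.114 and 0.142, limma). Quantile normalization within BAT and over all arrays gave -0.80 and -0.71 (adjusted p = 0.127 and 0.141, limma). Centring gave -0.97 (adjusted p = 0.0384, limma). With dim genes left out, in the fit over 18 arrays and with the replicate block the adjusted p was 0.0482, 0.0219 and 0.0233 (limma). In all, the BAT change of Ifi27l2a passed in 7 of 22 settings, and the main fit was not among the 7. The WAT change minus the BAT change was -0.83 ± 0.39, and -0.39 ± 0.31 without FXR BAT 1, 2 and 4.

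Ifi27, a member of the same family, was lower in FXR mice in BAT and not in WAT. It was 11.41, 11.85, 11.54, 11.31 and 11.28 on FXR BAT arrays, against 12.03, 12.07, 11.78, 11.93 and 11.75 on control BAT arrays. It fell in FXR BAT by 0.44 log2 units (change -0.44 ± 0.11 SE, adjusted p = 0.0181, limma), and 4 of 5 FXR arrays lay below every control. Without control BAT 2 the adjusted p was 0.0507, and without control BAT 2 and 4, whose extract text differs, it was 0.133 (limma). Quantile normalization within BAT and over all arrays gave changes of -0.21 and -0.20 and ended the call (adjusted p = 0.194 and 0.201, limma). In WAT it was 8.77, 9.01, 8.70 and 8.81 on FXR arrays and 8.47, 8.81, 8.70 and 8.80 on control arrays, a change of 0.13 ± 0.09. Ifi27l2b, the third family member measured, had a BAT change of 0.08 ± 0.04 (limma, adjusted p = 0.167) and a WAT change of 0.02 ± 0.05. Ifi27 lies within the span of Ifi27l2a on chromosome 12 in the RefSeq annotation of GRCm38.p6, so how the arrays assign signal between both is uncertain.

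Oasl2, a relative of the oligoadenylate synthetases, rose in FXR BAT. It was 7.07, 7.13, 6.99, 6.98 and 7.00 on FXR BAT arrays, against 6.84, 6.77, 6.84, 6.92 and 6.93 on control BAT arrays. The groups did not overlap, which held upwards for 1 member and 5.89% of all genes, and downwards for 0 members and 6.29% of all genes. The change was 0.17 ± 0.04 (adjusted p = 0.0181, limma). It did not pass under 7 of 11 other settings. These included both quantile normalizations (0.10 and 0.09, adjusted p = 0.143 and 0.142, limma), centring (0.09, adjusted p = 0.116), the fit over 18 arrays (adjusted p = 0.0801), and the fits without FXR BAT 1, 2 and 4 (0.184) or control BAT 2 and 4 (0.075). In WAT it was 6.81, 6.94, 6.86 and 6.84 on FXR arrays and 6.81, 6.68, 7.15 and 6.75 on control arrays, with a change of 0.02 ± 0.09.

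Ifit2, whose protein binds viral RNA and restrains its translation, had the next smallest p in BAT. It was 6.60, 6.47, 6.77, 6.56 and 6.75 on FXR BAT arrays, against 6.48, 6.34, 6.46, 6.56 and 6.36 on control BAT arrays. The groups overlapped and the change of 0.19 ± 0.06 did not pass (adjusted p = 0.0656, limma). It passed in 3 of 22 settings, a count that includes the main fit, where it did not pass. The 3 were the intensity trend with robust settings and the fits without FXR BAT 2 and without FXR BAT 1, 2 and 4. Among these, it was 0.23 ± 0.06 without FXR BAT 2 (adjusted p = 0.0293, limma). Without FXR BAT 1, 2 and 4 it was 0.31 ± 0.06 (adjusted p = 0.0178, limma). Quantile normalization within BAT and over all arrays gave 0.13 and 0.10 (adjusted p = 0.254 and 0.265, limma). Centring gave 0.11 (adjusted p = 0.227, limma).

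**Figure D2:**
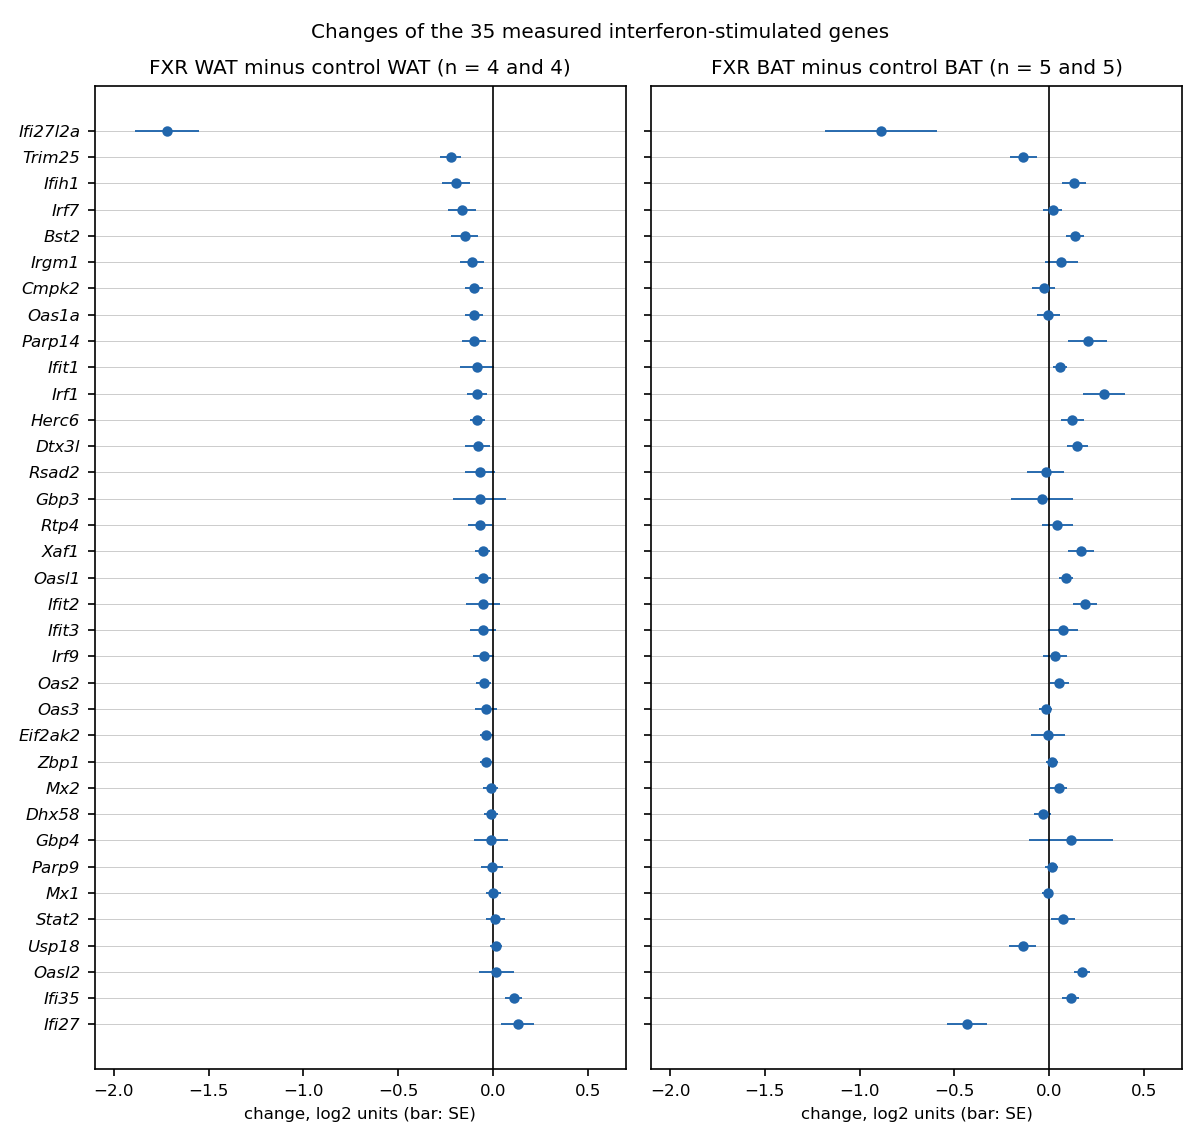
Change of each of the 35 measured members in WAT (left panel) and BAT (right panel), FXR minus control on the log2 scale with SE bars, sorted by the WAT change. Ifi27l2a stands alone at -1.72 in WAT, where the other 34 lie between -0.22 and 0.13. In BAT Ifi27l2a (-0.89) and Ifi27 (-0.44) are the lowest.

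None of the members described next passed the test in BAT; each value gives the change and no call. Among the regulators that carry the signal, Irf1 changed by 0.29 ± 0.11 in BAT and by -0.08 ± 0.05 in WAT. A second, dimmer Irf1 probe set gave 0.06 in BAT, so the size for this gene depends on the probe set. Irf7, the factor that amplifies type I interferon production, changed by 0.02 in BAT and by -0.16 in WAT, Irf9 by 0.03 and -0.05, and Stat2 by 0.07 and 0.01.

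Of the sensors of foreign nucleic acid on the list, Ifih1 had the third lowest WAT change of all members. Ifih1, which encodes the RNA sensor MDA5, changed by 0.13 in BAT and by -0.19 in WAT. Dhx58, the related helicase LGP2, changed by -0.03 and -0.01, and Zbp1, a sensor of Z-form nucleic acid, by 0.01 and -0.04. Usp18, which removes ISG15 from proteins and dampens receptor signalling, changed by -0.14 in BAT and by 0.02 in WAT.

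Antiviral effectors made up most of the list. In the oligoadenylate synthetase family, whose products activate RNase L, Oas1a, Oas2, Oas3 and the related Oasl1 changed by -0.02 to 0.09 in BAT and by -0.10 to -0.04 in WAT. Ifit1 and Ifit3 changed by 0.06 and 0.07 in BAT and by -0.08 and -0.05 in WAT. The dynamin-like GTPases Mx1 and Mx2 stayed below the dim bound in both tissues. Rsad2, which encodes viperin, changed by -0.02 in BAT and -0.07 in WAT, its chromosomal neighbour Cmpk2, a mitochondrial nucleotide kinase, by -0.03 and -0.10, and Eif2ak2, the RNA-activated kinase PKR, by -0.00 and -0.04. Bst2, the tetherin that holds budding virions at the cell surface, changed by 0.13 in BAT and -0.15 in WAT.

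Among the GTPases induced mainly by interferon gamma, Gbp3 and Gbp4 had the larger SEs in BAT. Gbp4 changed by 0.12 ± 0.22 in BAT and by -0.01 ± 0.09 in WAT, Gbp3 by -0.04 ± 0.17 and -0.07 ± 0.14, and Irgm1, which acts in autophagy, by 0.06 ± 0.09 and -0.11 ± 0.07. The ADP-ribosylation genes Parp14, Dtx3l and Parp9 changed by 0.20, 0.15 and 0.01 in BAT and by -0.10, -0.08 and -0.01 in WAT. Xaf1, Herc6, Rtp4 and Ifi35 changed by 0.17, 0.12, 0.04 and 0.11 in BAT and by -0.05, -0.08, -0.07 and 0.11 in WAT.

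**Figure D3:**
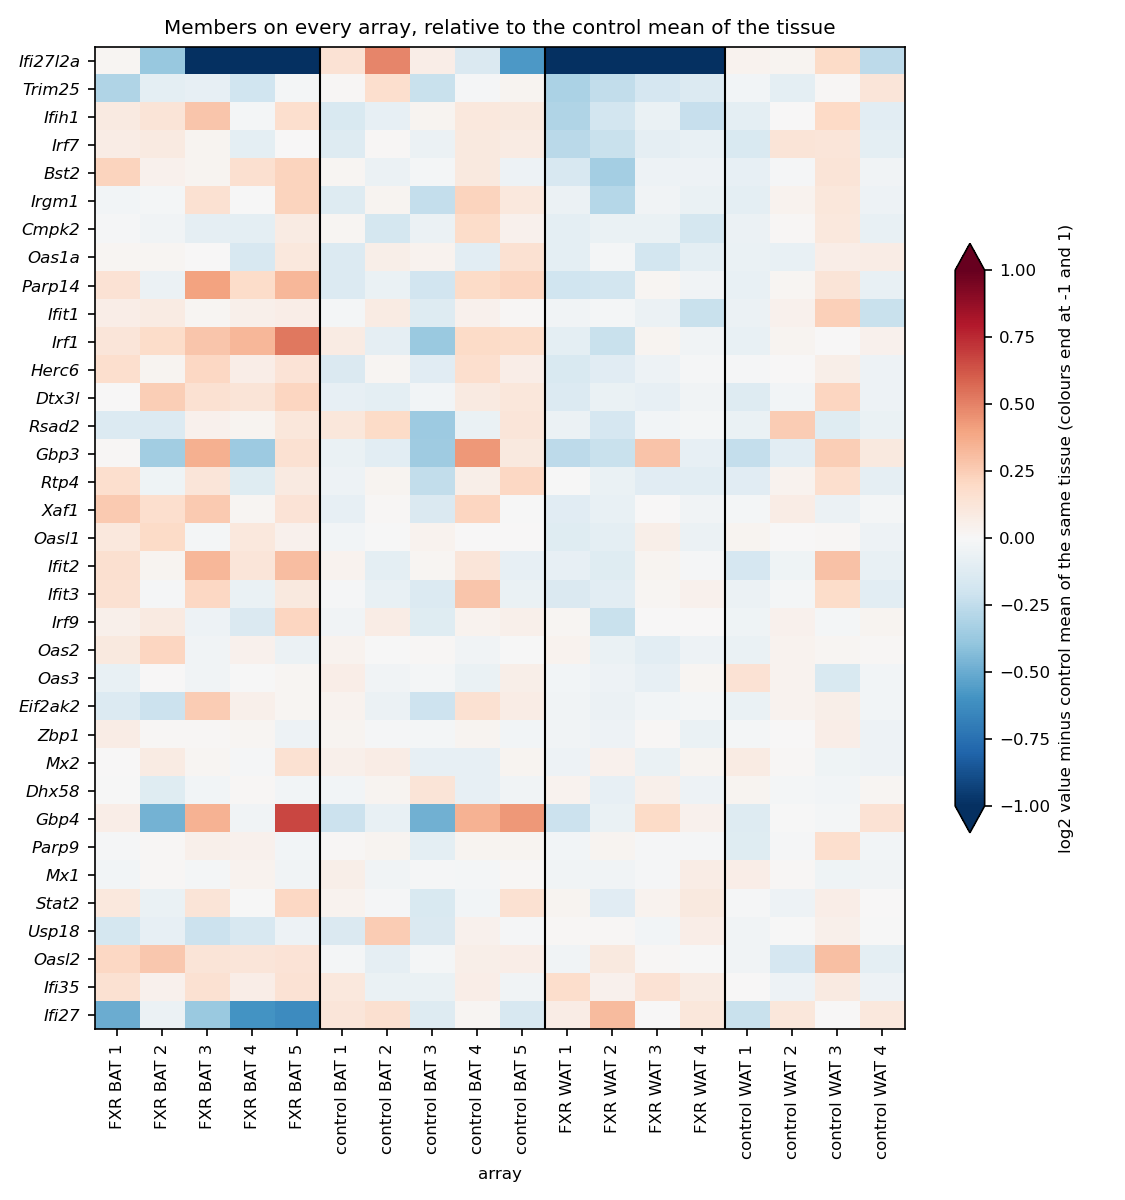
Each measured member on each array, as the log2 value minus the control mean of the same tissue, with colours ending at -1 and 1. Rows are sorted by the WAT change and columns run FXR then control within each tissue. Ifi27l2a is past the lower colour end on FXR WAT 1 to 4 and FXR BAT 3 to 5, and no other member is past either end.

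The changes were also read by whether the promoter held a match to the searched letters, without a test. The 11 measured members with a match had a median change of -0.07 in WAT and 0.06 in BAT. The 12 with a promoter and no match had -0.07 in WAT and 0.12 in BAT. Oasl2, which rose in BAT, was among the 12. Of the 11 with a match 0 passed in either tissue, where 15.8% of all genes passed in BAT and 1.33% in WAT. The 12 measured members not matched to a promoter, Ifi27l2a and Ifi27 among them, had -0.01 in WAT and 0.01 in BAT. All genes had medians of 0.00097 in WAT and 0.01 in BAT.

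Between the tissues the change itself was compared in 1 fit over all 18 arrays, as the WAT change minus the BAT change, and given as a description since it holds the WAT change. Of 35 members 1 was called higher (Ifi27) and 0 lower, beside 4.44% and 2.02% of all genes (6.46% in either direction), and 11 (31.4%) had an unadjusted p below 0.05 by limma, where 20% of all genes did. The difference was below 0 for 31 members and above 0 for 4, with a median of -0.10, where 54% of all genes were below 0 with a median of -0.01. It was -0.38 for Irf1, -0.32 for Ifih1, -0.30 for Parp14 and -0.28 for Bst2, genes whose changes lay above 0 in BAT and below 0 in WAT. The second, dimmer Irf1 probe set changed less in BAT, by 0.06, and by -0.09 in WAT. Above the dim bound lay 33 of 35 members in BAT and 23 in WAT, so changes may be compressed unequally between the tissues.

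To see whether members moved together from array to array, deviations from the group means were correlated over the 18 arrays. These correlations describe 18 arrays, and the genes on an array share its tissue piece, intensity scale and handling. Among the 33 members other than Ifi27l2a and Ifi27, the mean Pearson r over 528 pairs was 0.18, where the mean over all pairs of genes was 0.0096. The median over the 528 pairs was 0.21, and 68.2% of them were above 0. Irgm1 and Parp14 followed the mean of the others most closely, with r of 0.90 and 0.88. Adjacent genes such as Ifit2 with Ifit3 (0.76) and Parp9 with Dtx3l (0.63) varied together, but Rsad2 with Cmpk2 (-0.07) and Oas2 with Oas3 (-0.07) did not.

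Over all arrays together, Ifi27l2a did not follow this shared variation. Its SD within groups was 0.67 in FXR BAT and 0.39 in control BAT, against 0.36 in FXR WAT and 0.19 in control WAT. The BAT arrays, and FXR BAT above all, therefore weigh most in its correlations, which say less about WAT. The r of Ifi27l2a with the mean of the other members was -0.30. Its median r with the 33 members was -0.07, with 19 below 0 and 14 above. The lowest were Eif2ak2 (-0.62), Parp14 (-0.59), Gbp4 (-0.56) and Irf1 (-0.53), and the highest were Oas2 (0.59) and Zbp1 (0.47). Ifi27 correlated with Ifi27l2a at 0.34. Among the 6878 genes with a mean log2 value above 7, those most like Ifi27l2a were Txn2 (0.87), Rpph1 (0.86), Trf (0.82), Ndufa11 (0.81) and Tmem160 (0.80), and no member was among these 5.

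**Figure D4:**
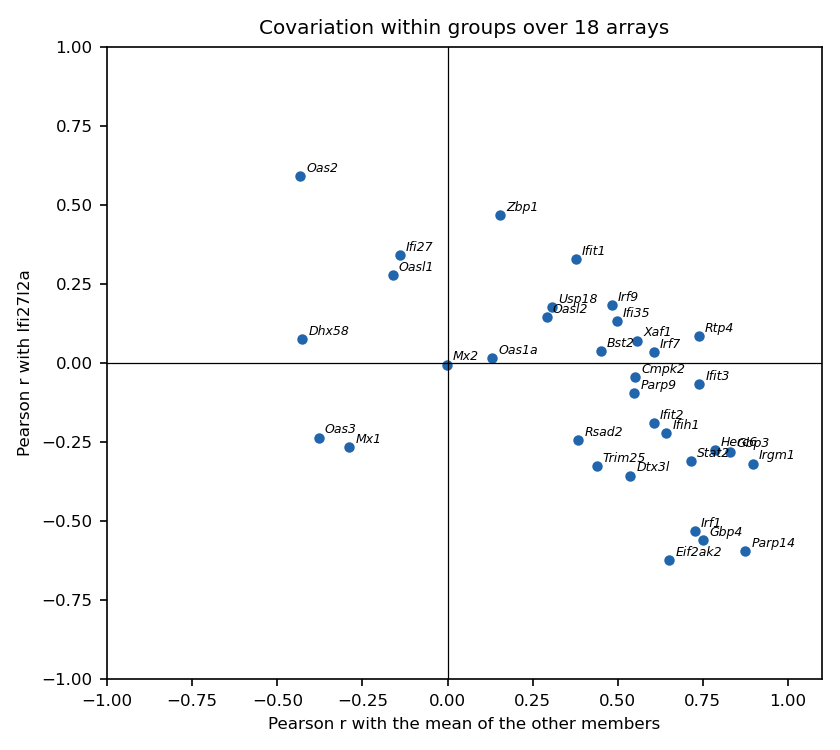
Pearson r of each member with Ifi27l2a (vertical axis) against its r with the mean of the other members (horizontal axis), from deviations from group means over 18 arrays. Irgm1 (0.90) and Parp14 (0.88) lie far right and below 0 on the vertical axis, and Oas2 has the highest r with Ifi27l2a (0.59) at -0.43 with the others.

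The rest of the interferon pathway was read from further lists. Of interferon ligands 13 of 16 were measured, and 0 passed in either tissue. Most of them were dim, with 6 above the bound in BAT and 1 in WAT. At an unadjusted p below 0.05 there were 2 of the 13 in BAT and 1 in WAT, where 28.2% and 12.5% of all genes were. Ifnl2 and Ifna14 had the largest BAT changes, 0.12 and 0.09. Ifnb1 averaged 6.13 in FXR BAT and 6.12 in control BAT.

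Of 9 receptors and kinases 1 rose and 1 fell in BAT, beside 7.01% and 8.75% of all genes. Ifngr2, a chain of the interferon gamma receptor, rose by 0.31 ± 0.06 (adjusted p = 0.00717, limma), and Ifnar2, a chain of the type I receptor, fell by 0.28 (change -0.28 ± 0.06, adjusted p = 0.00631, limma). Of 9 transcription factors Irf3 fell, with a change of -0.13 ± 0.04 (adjusted p = 0.0433, limma). Of 16 sensors and adaptors 2 rose and 2 fell. Tlr7, the endosomal receptor for single-stranded RNA, changed by 0.32 ± 0.05, Sting1, the adaptor of DNA sensing, by 0.34 ± 0.07, and Mavs, the adaptor of the RNA helicases, by -0.24 ± 0.05 (adjusted p = 0.00172, 0.00506 and 0.00787, limma). The fourth was Myd88, which fell. Of 7 negative regulators 3 rose, the phosphatase gene Ptpn6 by 0.15, Pias1 by 0.20 and Socs3 by 0.14 (adjusted p = 0.00925, 0.0414 and 0.0435, limma).

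Of interferon-induced genes outside the members, 4 of 39 rose and 1 fell in BAT, where 15.8% of all genes were called. Of these, Ifitm3 and Ifitm1, which hinder viral entry, changed by 0.62 ± 0.10 and 0.21 ± 0.03 (adjusted p = 0.00187 and 6.7e-04, limma), and Helz2 by -0.25 ± 0.04 (adjusted p = 0.00244, limma). Of 15 antigen presentation genes 2 fell, Psme1 by 0.21 and Psme2 by 0.28, both subunits of a proteasome activator (adjusted p = 0.031 and 0.0307, limma). In WAT 0 of these lists' genes passed apart from the members, and 13 of 100 had an unadjusted p below 0.05 by limma, where 12.5% of all genes did. The WAT values of the largest size were Cxcl9, an interferon gamma induced chemokine, at -0.52 ± 0.15, and H2-Eb1, a class II antigen presentation gene, at -0.50 ± 0.25. Over the 100 genes of these lists that are not members, 10 rose and 7 fell in BAT, shares of the same order as the 7.01% and 8.75% of all genes.

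Cell type markers moved beside these values in BAT, where 7.01% of all genes rose and 8.75% fell. In WAT 0.873% of all genes rose and 0.456% fell. Of 16 macrophage markers 14 rose, and their mean log2 value was 7.72 to 7.88 on FXR BAT arrays, against 7.00 to 7.34 on control BAT arrays. In WAT 0 of 16 macrophage markers passed, and 5 had an unadjusted p below 0.05 by limma, where 12.5% of all genes did. Their mean there was 7.58 to 7.90 on FXR arrays and 7.44 to 7.80 on control arrays. All 8 brown adipocyte markers fell in BAT, at 9.67 to 10.00 in FXR and 10.49 to 10.93 in control, and 3 of 10 endothelial markers fell, at 8.31 to 8.68 in FXR and 8.66 to 8.87 in control. Of 12 skeletal muscle markers 2 were called higher in BAT, while all 12 had a mean at least 1.5-fold higher in FXR BAT. The levels of these markers on each array are given above. Of 8 adipocyte markers 5 fell and 1 rose in BAT, at 10.55 to 10.77 in FXR and 10.60 to 10.83 in control. In WAT their mean was 10.28 to 10.40 in FXR and 10.24 to 10.43 in control, and of the 8 the leptin gene Lep rose (1.30 ± 0.22, adjusted p = 0.0323, limma) and Pparg, the adipocyte master regulator, fell (-0.29 ± 0.05, adjusted p = 0.0435, limma). Of 7 markers of plasmacytoid dendritic cells, a main source of type I interferon, Siglech rose in BAT by 0.19 ± 0.04 (adjusted p = 0.0126, limma). In WAT 0 of the 7 passed. T and NK cell, B cell and neutrophil markers gave 1 of 10, 0 of 4 and 1 of 5 rises in BAT and lay below the dim bound throughout in WAT. The part of these cell types in the members' values was not tested, and in bulk tissue fewer cells of a type and less RNA per cell cannot be told apart.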

How the data were processed

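The deposited table holds 1 linear intensity per probe set and array, from 36.0 to 15980, as the authors processed it. Their background correction and normalization are not given in the sources used here. The number of arrays limits the precision, and p-values rest on the spread between these samples alone, which may be technical in part. The platform annotation gave 1 gene symbol for 21640 of 34760 probe sets, several for 1321 and none for 11799. The probe set with the highest mean log2 value over 18 arrays stood for each of 954 genes with several, which left 19937 genes, with no filter on dim signal.

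From these intensities log2(intensity + 1) was taken. FXR was compared with control within each tissue, and the difference of changes over all 18 arrays, with limma 3.58.1 (lmFit, eBayes; R 4.3.3), two-sided, adjusted after Benjamini-Hochberg over all genes at a threshold of 0.05. The fit was tested on simulated data.

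The members and lists were chosen with earlier results of these data known. All members are named. Values on every array are given for Ifi27l2a, for the 4 smallest p-values in BAT and for members whose WAT arrays do not overlap. Further lists name up to 3 called genes each, or 2 as values. Myd88 falls outside that rule. Likeness used genes above a mean log2 value of 7.

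Alternatives were a pseudocount of 16, quantile normalization within tissue and over all arrays, centring, dim genes left out, the mean of probe sets, an intensity trend with robust settings, 1 fit over 18 arrays, a replicate block, each array left out, and BAT without FXR arrays 1, 2 and 4 or without control arrays 2 and 4.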

Additional observations from a re-analysis of the deposited data

Results flagged for a closer look

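Ifi27 changed differently in both tissues: the WAT change exceeded the BAT change by 0.56 ± 0.15 (interaction over 18 arrays, adjusted p = 0.0337, limma). This difference holds the WAT change, the contrast on which the members were selected. The adjusted p (limma) was above 0.05 without each of 11 of the 18 arrays in turn, at up to 0.0742. It was 0.122 without control BAT 2 and 4, and 0.31 and 0.315 under the quantile normalizations.

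Within groups, 6 of 140 sets of values (35 members in 4 groups) had 1 array far from the others by Dixon's test at the 95% level. That is 4.29%, where chance gives about 1 in 20. On control BAT arrays, Ifit3 was 6.56 on array 4, with the others at 6.15 to 6.27, and Parp9 was 7.59 on array 3, with the others at 7.70 to 7.72. On FXR WAT 2, Irf9 was 6.27, with the others at 6.49 to 6.51, and Irgm1 was 5.96, with the others at 6.18 to 6.21. Oas2 was 6.00 on control WAT 1, with the others at 6.08 to 6.10, and Rsad2 was 6.40 on control WAT 2, with the others at 6.03 to 6.08.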

How the results depend on the processing

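In WAT, 0 members other than Ifi27l2a were called under the 9 other settings or with each array left out, and the change of Ifi27l2a, which set the list, was between -1.95 and -1.59. All genes called in WAT numbered 265 and 411 in a fit over all 18 arrays, and 49 to 336 with 1 array left out (49, 54 and 64 without control WAT 1, 2 or 4, and 105, 129 and 109 without FXR WAT 1, 2 or 4). In BAT, members called higher were 0 under both quantile normalizations, centring and the replicate block, 2 under the trend and robust settings and the fit over 18 arrays, and 1 to 3 with 1 array left out. Members called lower in BAT were 0 under both quantile normalizations and without control BAT 2 and 4, and 2 under centring, with dim genes left out, in the fit over 18 arrays, with the replicate block and without FXR BAT 1, 2 and 4, and 0 to 2 with 1 array left out. All genes called in BAT numbered 3142, against 4852 when centred, 1913 without FXR BAT 1, 2 and 4, 1416 without control BAT 2 and 4 and 2198 to 3685 with 1 array left out. Centring moved the share of higher calls to 16% from 44.5% in BAT and to 86.9% from 68.7% for the difference between tissues, where quantile normalization of all arrays gave 56.7%. The members' median change in BAT was -0.030 when centred, where that of all genes was -0.068. For the difference between tissues, called members were 0 under both quantile normalizations, 2 with dim genes left out, with the mean of probe sets and without FXR BAT 1, 2 and 4, 3 with the replicate block, and 0 to 3 with 1 array left out; all genes called were 1288, against 819 under quantile normalization of all arrays, 727 without control BAT 2 and 4, and 908 to 1690 with 1 array left out. Ifi27 in BAT stayed between -0.53 and -0.20, with an adjusted p of 0.194 and 0.201 under the quantile normalizations (limma). The causes were not tested.

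Replicate numbers recur between the genotypes, but same-numbered arrays did not deviate together: correlations of deviations were -0.49 to 0.28 in BAT, where 1 of 5 pairs correlated best with its own number, and 0.01 to 0.16 in WAT, where 2 of 4 did. With the replicate block, 2741 genes were called in BAT and 237 in WAT, Ifi27l2a in BAT had an adjusted p of 0.0233 and Oasl2 one of 0.0734 (limma). Dim signal limits what WAT can show for 12 of the 35 members.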

Other observations

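Genes most like Ifi27l2a within groups, a likeness that rests mostly on its spread in BAT, were not those that shared its fall in WAT. Txn2, which encodes mitochondrial thioredoxin, correlated at 0.87 over 18 arrays and changed by -0.01 ± 0.05 in FXR WAT and by -0.35 ± 0.05 in FXR BAT. Rpph1, the RNA of RNase P, correlated at 0.86 and changed by -0.07 ± 0.15 in WAT and by -0.14 ± 0.14 in BAT.

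Of the 40 listed genes, 8 lie on chromosome 11, 6 on chromosome 5, 6 on chromosome 16 and 4 on chromosome 12 in the RefSeq annotation of GRCm38.p6. The 4 on chromosome 12 are Ifi27, Ifi27l2a, Rsad2 and Cmpk2. Of these, Rsad2 and Cmpk2 changed by -0.07 ± 0.08 and -0.10 ± 0.05 in FXR WAT.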
